A study of Mus musculus with 44 samples.

Results

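Primary osteoblast cultures were grown from the calvaria (the skull cap) of mice labelled as 7 day new born and carrying GFP driven by a fragment of the type I collagen promoter (pOBCol3.6GFP, per the series title). Cells grew for 7 days in DMEM with 10% FCS, with medium changed on day 2 and day 5 and no additions. At day 7 RNA was taken from the unsorted culture and from its GFP-positive and GFP-negative fractions after fluorescence-activated sorting, in the 3 experiments Exp99, Exp101 and Exp103. The comparison therefore used 9 samples on array type A (the first array of an Affymetrix mouse set, labelled 74A), 3 unsorted, 3 GFP-positive and 3 GFP-negative, of 44 in the series, and asks what the dissociated and sorted cells lack, or carry in excess, relative to the culture they came from. All 3 groups share the transgene and the medium. The labels name neither the strain nor the number of pooled animals. They describe trypsin, washing and declumping for a single fraction, and give no harvest method for the unsorted RNA. Nothing beyond the experiment name says that replicates were separate cultures or animals, so the p-values reflect only how these samples vary, which can be technical.

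As background, enzymatic release of cells from a dish and the passage through a sorter expose them to loss of adhesion, shear and delay. In many tissues this induces immediate early genes such as Fos and Egr1 and heat shock genes within the handling time. Calvarial digests also hold cells that do not make type I collagen, among them macrophages and fragments of adjoining skeletal muscle. An unsorted culture contains every one of these cells, whereas a GFP gate divides them and can drop clumps, dying cells and multinucleate fibres. In bulk RNA, fewer cells of a type and less RNA per cell cannot be told apart.

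Most genes called higher in the unsorted culture than in GFP-positive cells were macrophage genes or muscle genes, beside the protease gene Mmp3 and Clu. Upstream sequences of Cd68, Actc1 and Mmp3 are shown so that a macrophage, a muscle and a protease gene can be seen beside their values. RefSeq's promoter table (GRCm38.p6) had entries for 11 of the 14 named genes called higher, 12 promoters in all. The 250 bases before the annotated start are printed 5′ to 3′ on the gene's strand, and the capitals mark the match of the motif named beside each gene. They come from chr11:69666171-69666420 (minus strand) for Cd68, with GAGGAA, part of the site of the myeloid factor PU.1. The Actc1 sequence is chr2:114052876-114053125 (minus strand), with the CArG box, the site of serum response factor. That of Mmp3 is chr9:7445572-7445821 (plus strand), with TGAGTCA, the AP-1 site.
Cd68: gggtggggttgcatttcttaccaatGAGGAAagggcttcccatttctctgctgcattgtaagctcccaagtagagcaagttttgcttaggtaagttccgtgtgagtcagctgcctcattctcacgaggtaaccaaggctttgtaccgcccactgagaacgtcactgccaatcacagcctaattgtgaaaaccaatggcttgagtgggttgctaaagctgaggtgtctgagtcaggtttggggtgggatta
Actc1: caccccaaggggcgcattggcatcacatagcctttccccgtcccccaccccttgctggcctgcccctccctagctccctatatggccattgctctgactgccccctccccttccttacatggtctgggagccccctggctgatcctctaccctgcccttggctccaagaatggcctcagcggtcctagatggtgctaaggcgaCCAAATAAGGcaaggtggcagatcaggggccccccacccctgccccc
Mmp3: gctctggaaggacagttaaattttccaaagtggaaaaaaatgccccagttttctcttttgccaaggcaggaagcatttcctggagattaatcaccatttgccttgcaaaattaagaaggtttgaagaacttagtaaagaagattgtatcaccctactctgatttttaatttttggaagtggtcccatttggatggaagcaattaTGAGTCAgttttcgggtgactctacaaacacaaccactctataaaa
The match began 225 bases before the start in Cd68, 47 before it in Actc1 and 46 before it in Mmp3. Searched on both strands, GAGGAA was found in 4 of the 12 promoters, against 23.3% of 32851 mouse promoters of the same length. The muscle E-box CAGCTG was found in 3 of the 12 and in 13% of all, TGAGTCA in 2 of the 12 and in 4.46%, and the CArG box in 1 of the 12 and in 1.47%. The matches did not sort by class, since CAGCTG was found in the macrophage genes Cd68 and Ctss beside Myl1, and GAGGAA in the muscle gene Myl1 beside Cd68, Ctss and C1qb. Cd68 also held 2 copies of TGAGTCA, left in lower case. These are letter matches in a short window and describe no binding.

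Of 12422 probe sets, 6580 lay above their array's median on at least 3 of the 9 arrays and were tested. The 2% trimmed mean intensity of the 9 arrays ran from 1195 to 1613. Exp101 stood apart. Its unsorted sample lay at least 1 log2 unit above both of its own fractions in 206 probe sets, against 12 in Exp99 and 6 in Exp103, and at least 1 unit below both in 63, against 18 and 32. In 183 of the 206, the sorted fractions of Exp101 differed more from the other experiments' fractions than its unsorted sample did from the other unsorted samples. Where both fractions differed the same way between Exp101 and Exp103 by at least 1.5 log2 units, the unsorted samples differed that way in 7 of 25 probe sets. The same count was 43 of 48 between Exp99 and Exp101 and 10 of 10 between Exp99 and Exp103. The unsorted samples of Exp101 and Exp103 each deviated from their group together with the other experiment's fractions rather than with their own. Whether these 2 unsorted samples were exchanged could not be settled, and nothing in the labels says so. The labels were kept as given, so every within-experiment difference, the block and the counts outside both fractions rest on that pairing, while fits without the block do not use it.

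Against GFP-positive cells, the unsorted culture was higher in 16 of 6580 probe sets, 0.243% of those tested, and lower in 0 (limma with experiment as a block, Benjamini-Hochberg adjusted p under 0.05). At an unadjusted p under 0.05 there were 181 higher and 100 lower, 281 in all. With no change, 329 of the 6580 would be reached in this and in each of the other comparisons below. The 16 named 14 genes, mostly of macrophages, with a muscle group, Mmp3 and Clu. In 3 of the 16 a GFP-positive value lay under 20, near the lowest value in the table, which is 10, so that no fold is given. The other 13 were 2.59-fold to 14.3-fold higher. In 15 of the 16 every unsorted value lay above every GFP-positive value, as it did in 335 of all tested probe sets (5.09%). The 16 were picked by a test on these same values, so their separation is no separate evidence. The same holds where a called gene is said below not to overlap. Without the block 6 passed, all among the 16. Leaving out Exp99, or its unsorted sample alone, left 0 called, with 146 and 179 at an unadjusted p under 0.05. Leaving out the unsorted sample of Exp101 left 9, the GFP-negative sample of Exp99 9 and the GFP-positive sample of Exp99 10, whereas without the whole of Exp101 there were 19, of which 14 were shared.

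Values below are normalised intensities in the order Exp99, Exp101, Exp103. Lyz2, the lysozyme of macrophages and granulocytes, read 11910, 4805 and 4817 in the unsorted culture, 595, 813 and 463 in GFP-positive cells and 11260, 4109 and 6878 in GFP-negative cells. Every unsorted value stood above every GFP-positive one, with a log2 difference of 3.35 ± 0.34 (SE, n = 3 each; limma adjusted p = 0.0062). Ctss, the lysosomal protease cathepsin S, read 4479, 2494 and 1531 unsorted, 266, 308 and 219 GFP-positive and 2976, 1269 and 2323 GFP-negative. The difference from GFP-positive cells was 3.15 ± 0.32 (limma adjusted p = 0.0063), again without overlap. C1qa, a chain of complement C1q that tissue macrophages secrete, read 5109, 1845 and 1355, against 597, 404 and 248 in GFP-positive cells and 4366, 1231 and 2377 in GFP-negative cells. It was higher than in GFP-positive cells by 2.48 ± 0.30 (limma adjusted p = 0.015). Exp99 had the highest unsorted level of all 3 genes.

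Cd68, a glycoprotein of macrophage lysosomes, read 3005, 1670 and 1490 unsorted, 529, 276 and 369 GFP-positive and 2732, 1192 and 2132 GFP-negative. Its difference from GFP-positive cells, 2.28 ± 0.19 (limma adjusted p = 0.0062), had the smallest SE of these macrophage genes. Coro1a, which encodes an actin-binding protein of leukocytes, read 952, 616 and 682 unsorted against 171, 113 and 146 GFP-positive (2.14 ± 0.27). Msr1, the class A scavenger receptor, read 1214, 580 and 788 against 229, 221 and 125 (1.97 ± 0.27) and passed in 14 of 26 alternatives, while its second probe set gave 1.39 ± 0.28 and did not pass. Lilr4b, an inhibitory receptor of myeloid cells, read 2287, 733 and 957 against 202, 121 and 55.8 (3.04 ± 0.27). A called C1qb probe set read 1792, 412 and 547 unsorted against 51.6, 19.9 and 26.9 GFP-positive. The other C1qb probe set, higher on the mean log scale and so taken to represent the gene, gave 0.10 ± 0.42, and the 2 probe sets disagree. The remaining calls were probe sets shared by Lyz1 and Lyz2 and by Lilrb4a and Lilr4b. In 27 alternative analyses Lyz2, Ctss, C1qa and Cd68 kept their direction, and their limma adjusted p was under 0.05 in 24, 23, 16 and 22 of them.

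Over all 34 macrophage and other myeloid genes on the array, with no filter, the median log2 difference of the unsorted culture from GFP-positive cells was 1.35, against -0.02 over all 12422 probe sets. In the 3 experiments it was 2.03, 1.18 and 1.04. Of the 34, 19 were tested and 6 called higher, beside 0.243% of all probe sets. A member that is low in GFP-positive cells passed the filter through the other groups, so the count over tested members describes them and supports nothing further. Members that did not pass included Mrc1, the mannose receptor (limma adjusted p = 0.062), whose GFP-positive values lie near the lowest in the table. Mrc1 read 1338, 432 and 411 unsorted, 49.9, 12.5 and 31.2 GFP-positive and 624, 166 and 772 GFP-negative. Other members of the list (Ptprc, Itgam, Adgre1 and Cybb) lay too low on the arrays to be tested. The summed intensity of the list was 66860, 37880 and 35170 in the unsorted culture, 22250, 18030 and 17280 in GFP-positive cells and 59750, 27580 and 43370 in GFP-negative cells. The unsorted sum was thus 3.0, 2.1 and 2.04 times the GFP-positive one. It was 1.12, 1.37 and 0.811 times the GFP-negative one, above it in Exp99 and Exp101 and below it in Exp103.

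The muscle group was smaller. Myl1, a myosin light chain of fast fibres, read 1444, 1922 and 1975 unsorted, 378, 596 and 297 GFP-positive and 1480, 2675 and 2012 GFP-negative, a difference of 2.03 ± 0.20 from GFP-positive cells (limma adjusted p = 0.0062). Tnnc1, troponin C of slow and cardiac muscle, read 772, 743 and 859, against 129, 297 and 102 and against 808, 990 and 953, a difference of 2.1 ± 0.31 (limma adjusted p = 0.044). Neither gene's unsorted values overlapped the GFP-positive ones. Tnnc1 kept an adjusted p under 0.05 in only 9 of 26 alternative analyses, and Myl1 in 23 of 27. A Myl4 probe set read 1026, 1332 and 1572 unsorted against 370, 395 and 367 GFP-positive (1.69 ± 0.18), while the brighter Myl4 probe set gave 0.73 ± 0.35 and did not pass.

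Actc1, the cardiac actin also made by young skeletal muscle, was called on 1 of its 2 probe sets (limma adjusted p = 0.0099). That probe set read 905, 1372 and 899 unsorted, 36.8, 10.7 and 11.6 GFP-positive and 653, 573 and 1930 GFP-negative. The GFP-positive values lie near 10, so the size of the difference is not measured, and its fitted value ran from 2.99 to 5.37 over the alternatives. The other, brighter probe set is of a kind that detects related genes, and gave 0.45 ± 0.21. Acta1, skeletal actin, read 1584, 1984 and 1432 unsorted, 552, 375 and 551 GFP-positive and 1119, 1164 and 2290 GFP-negative (1.70 ± 0.27) and did not pass (limma adjusted p = 0.062). Over all 37 skeletal muscle genes on the array, with no filter, the median log2 difference from GFP-positive cells was 0.35. Of these 14 were tested and 2 called, beside 0.243% of all probe sets, with the same limit of the filter. Des and Myf5 lay too low to be tested. The unsorted sum of the list was 1.5, 1.66 and 1.42 times the GFP-positive sum and 0.973, 1.24 and 0.796 times the GFP-negative sum.

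Mmp3, stromelysin 1, which cleaves matrix proteins and other proteases, read 10960, 2058 and 2538 unsorted, 2876, 320 and 297 GFP-positive and 10250, 3059 and 2631 GFP-negative. It was the called probe set whose groups overlapped, since the GFP-positive value of Exp99 lay above the other 2 unsorted values. Within each experiment the unsorted culture was higher, by 2.48 ± 0.25 in the blocked fit (limma adjusted p = 0.0062). It was the only called member of 14 tested matrix proteases and inhibitors, beside 0.243% of all probe sets. Clu, the secreted chaperone clusterin, had the smallest called difference, 1.37 ± 0.18 (limma adjusted p = 0.025), at 1683, 1474 and 1322 unsorted, 813, 390 and 533 GFP-positive and 1710, 1448 and 1429 GFP-negative.

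**Figure D1:**
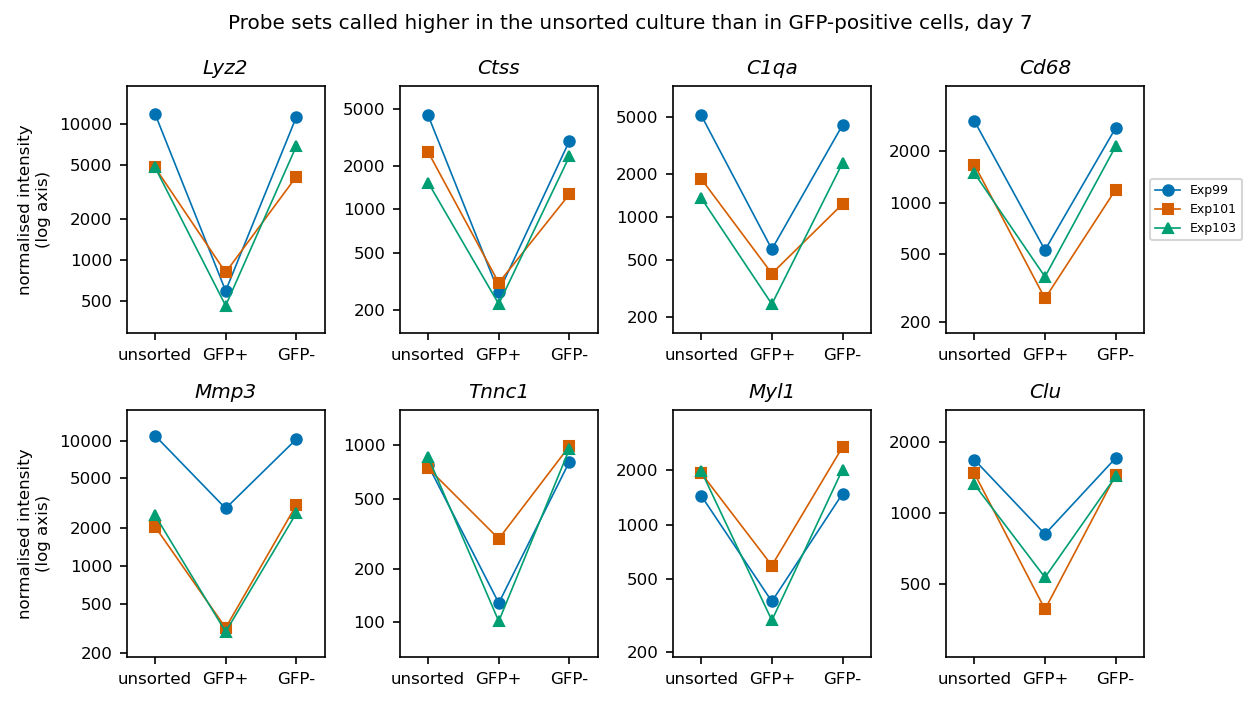
Normalised intensity (log axis) of 8 called genes in the unsorted culture, GFP-positive (GFP+) and GFP-negative (GFP-) cells at day 7, with 1 point per sample and lines joining samples of 1 experiment. For each gene the unsorted point lies above the GFP-positive point of its experiment and closer to the GFP-negative point than to it. The widest gap to the GFP-negative point is that of Ctss in Exp101 (2494 against 1269). Mmp3 of Exp99 (10960, 2876 and 10250) runs above that of the other experiments throughout.

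Against GFP-negative cells 0 of 6580 probe sets passed limma (0% of those tested), with 76 higher and 70 lower at an unadjusted p under 0.05 and a lowest adjusted p of 0.9995. No alternative listed for this comparison gave a call. The 16 probe sets called against GFP-positive cells lay between -0.20 and 0.39 in log2 difference from GFP-negative cells, with a median of -0.01 and SEs up to 0.50. The unsorted value exceeded the GFP-negative one in 12 of the 16 in Exp99, 10 in Exp101 and 3 in Exp103. In 15 of the 16 every GFP-negative value also lay above every GFP-positive value, as in 2.92% of all tested probe sets. Both counts use the same GFP-positive samples, so this is no separate evidence. None of the 16 had every unsorted value above every GFP-negative value, a pattern seen in 2.25% of all tested.

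The genes closest to a call against GFP-negative cells did not pass, and among them were Grb7, an adaptor protein of receptor tyrosine kinases, and Traip, a ubiquitin ligase of DNA replication. Traip read 240, 200 and 295 unsorted, 262, 261 and 257 GFP-positive and 596, 757 and 697 GFP-negative, a log2 difference of -1.38 ± 0.30 from GFP-negative cells. The unsorted and GFP-positive values of Traip ran together, and both lay below every GFP-negative value. Every unsorted value lay below every GFP-negative value in 216 of all tested probe sets. Every GFP-negative value lay above every GFP-positive value in 2.92% of them. Traip passed the filter through its GFP-negative values alone and was picked by its p-value on these same values. Its separation is therefore no separate evidence. Grb7 read 336, 323 and 380 unsorted, 1026, 345 and 365 GFP-positive and 1264, 1126 and 718 GFP-negative (-1.46 ± 0.33). Col14a1, a collagen that coats fibrils, leaned the other way at 2384, 2085 and 1412 unsorted, 1178, 586 and 1328 GFP-positive and 951, 603 and 1320 GFP-negative (1.04 ± 0.30).

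Set against the mean of both fractions, 0 of 6580 probe sets passed limma (0%), with 134 higher and 104 lower at an unadjusted p under 0.05 and a lowest adjusted p of 0.451. Without the GFP-positive sample of Exp101 3 passed, among them Lyz2 and Lilr4b, and without Exp103 1 passed. Genes of cells lost to the sort were looked for above both fractions, and genes raised by handling below both. By at least 0.2 log2 units in all 3 experiments, 7 probe sets (0.106%) were above both fractions and 12 (0.182%) below both. With no normalisation between arrays the split was 17 above and 1 below, and at a distance of 0.5 there were 0 of either. Without Exp101, where only 2 experiments have to meet the condition, there were 41 above and 66 below. Ignoring the experiments, an alternative chosen after the data were seen, 0 probe sets had all unsorted values above all 6 sorted values by 0.2 and 4 had them all below.

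Those above both were Ramp2, Dhrs3, Tiparp, Ddx6, Usp18, a family-type probe set of the class I gene H2-D1 and 1 probe set of several genes. Ramp2, a receptor partner that endothelial cells need for adrenomedullin, read 550, 820 and 723 unsorted, 396, 445 and 543 GFP-positive and 349, 600 and 601 GFP-negative. Dhrs3, which reduces retinal to retinol, read 1420, 853 and 993 unsorted, 820, 483 and 699 GFP-positive and 1063, 650 and 822 GFP-negative. Usp18, an interferon-induced protease that removes ISG15, read 443, 1193 and 717 unsorted, 359, 990 and 564 GFP-positive and 348, 889 and 591 GFP-negative. In all 3 groups Dhrs3 was highest in Exp99 and lowest in Exp101, and Usp18 was highest in Exp101 and lowest in Exp99, so across experiments the groups overlapped. Of 19 tested interferon response genes, 0 were called in any of the comparisons and 1, Usp18, was above both; the median difference from the mean of the fractions was 0.08.

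The 12 below both included Dffa, which holds the apoptotic DNase in check, and Endog, a mitochondrial nuclease. Dffa read 1011, 1219 and 1166 unsorted, 2117, 1672 and 1603 GFP-positive and 1538, 1676 and 1449 GFP-negative, with no unsorted value reaching any sorted one. It was lower by -0.55 ± 0.14 against the mean of the fractions and did not pass. Endog read 469, 427 and 447 unsorted, 649, 679 and 636 GFP-positive and 778, 723 and 584 GFP-negative (-0.55 ± 0.17), also without overlap. Dffa and Endog were picked as lying below both fractions, which 0.182% of all tested probe sets did. Their lack of overlap is therefore no separate evidence. Txnip, an inhibitor of thioredoxin that follows glucose supply, read 592, 604 and 524 unsorted on the probe set counted here, 705, 915 and 811 GFP-positive and 926, 830 and 677 GFP-negative. A second Txnip probe set, at 266, 3081 and 1225 unsorted, 628, 2729 and 1763 GFP-positive and 737, 2347 and 1430 GFP-negative, lay above both fractions in Exp101. The other 9 were Pacsin1, Atp5d, Rhou, Nup50, Ifna9, Prp2, D030056L22Rik and 2 probe sets without a single gene name. Of 7 tested apoptosis and p53 target genes, 0 were called, with a median difference of 0.01 from the mean of the fractions.

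Among genes known to respond to dissociation none passed limma. Of 45 immediate early genes on the array 40 were tested, 0 were called in any of the 3 comparisons (limma; 2 higher and 0 lower than the mean of the fractions at an unadjusted p under 0.05) and the median difference from that mean was -0.01, equal to that over all tested genes (-0.01). Fos, a subunit of AP-1, read 1409, 2256 and 4664 unsorted, 2179, 3640 and 4591 GFP-positive and 2699, 4279 and 1117 GFP-negative. The unsorted culture had the lowest Fos of its experiment in Exp99 and Exp101 and the highest in Exp103, and the difference from the mean was -0.18 ± 0.44. Dusp1, a phosphatase that turns MAP kinases off, was lowest in the unsorted culture in the same experiments and between the fractions in Exp103, at 2679, 2857 and 5397 unsorted, 3110, 4655 and 5742 GFP-positive and 3054, 4866 and 2557 GFP-negative (-0.15 ± 0.26).

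Jun, the partner of Fos, read 696, 680 and 596 unsorted, 560, 505 and 515 GFP-positive and 549, 496 and 572 GFP-negative. All 3 unsorted values were above all 6 sorted ones, but narrowly, the lowest unsorted at 596 against the highest sorted at 572. Every unsorted value lay above every GFP-positive value in 5.09% of all tested probe sets, and above every GFP-negative value in 2.25%. The difference of Jun from the mean of the fractions, 0.29 ± 0.17, did not pass. Egr1, a zinc finger factor induced by serum and stretch, read 1558, 3089 and 1706 unsorted, 1634, 2495 and 1782 GFP-positive and 2737, 1799 and 1814 GFP-negative (0.01 ± 0.23). Atf3, a stress factor of the same family as AP-1, read 1699, 1225 and 1695, against 964, 1924 and 1688 and against 1222, 1537 and 1236 (0.13 ± 0.21). Both overlapped widely. Junb (-0.16 ± 0.16) and Ier2 (0.02 ± 0.14) had differences of similar size. Ptgs2, the inducible cyclooxygenase, was counted among the inflammatory genes and read 411, 393 and 567 unsorted, 793, 1060 and 708 GFP-positive and 616, 907 and 493 GFP-negative. It was below both fractions in Exp99 and Exp101 and between them in Exp103, with a difference of -0.68 ± 0.23 that did not pass.

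**Figure D2:**
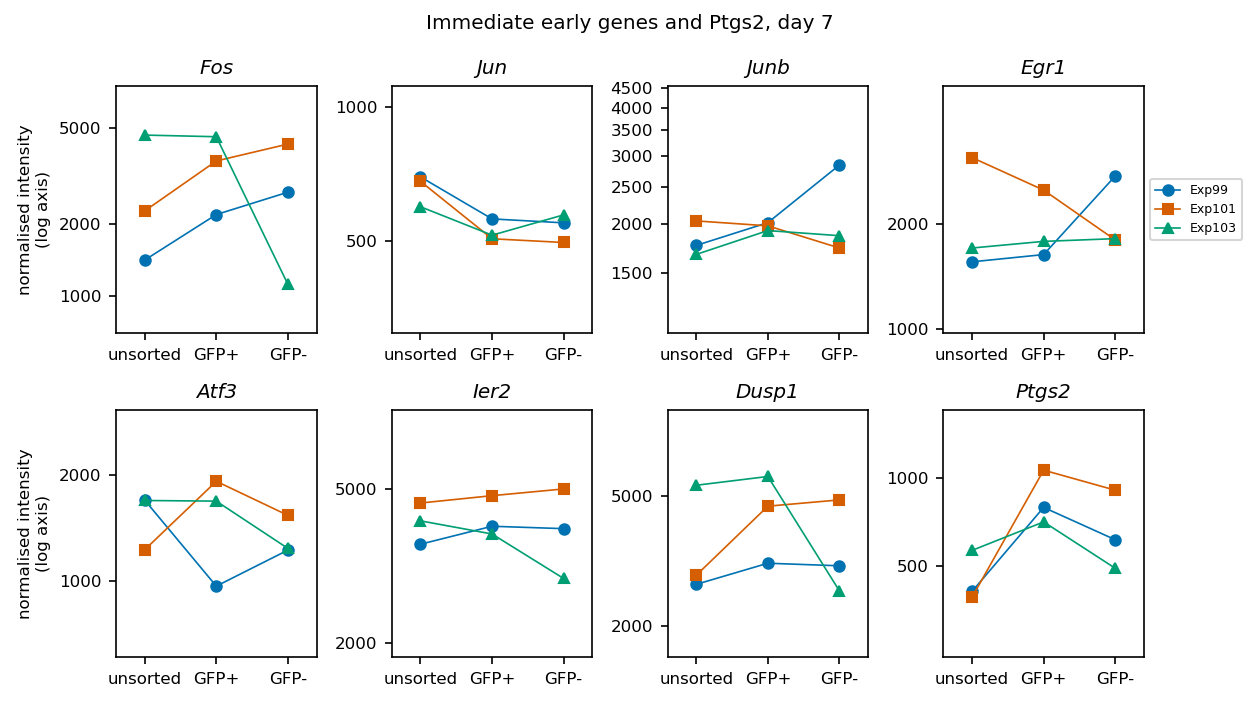
Normalised intensity (log axis) of 7 immediate early genes and Ptgs2 in the unsorted culture, GFP-positive (GFP+) and GFP-negative (GFP-) cells at day 7, with 1 point per sample and lines joining samples of 1 experiment. The lines of the 3 experiments cross; Fos of Exp103 drops to 1117 in GFP-negative cells, while Fos of Exp99 and Exp101 is lowest in the unsorted culture (1409 and 2256).

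The other lists of genes that can respond to handling also held 0 calls. Of 15 tested heat shock and chaperone genes 0 were called and the median difference from the mean of the fractions was -0.05. Hsph1, a large heat shock protein, read 6779, 7316 and 4990 unsorted, 5842, 4570 and 6419 GFP-positive and 3916, 3870 and 7557 GFP-negative (0.27 ± 0.23), so Exp103 went against the others. Hspa1b, the inducible heat shock protein, lay too low to be tested, at 423, 663 and 489 unsorted, 331, 330 and 415 GFP-positive and 324, 371 and 636 GFP-negative. Ccn2, a matrix protein gene driven by YAP and cell tension, read 9519, 6469 and 5753 unsorted, 6203, 2695 and 4678 GFP-positive and 7758, 5437 and 6704 GFP-negative. Its unsorted value was above the GFP-positive one in every experiment (0.72 ± 0.19) and did not pass (limma adjusted p = 0.603). The lists of unfolded protein response (16 tested), hypoxia and glycolysis (17), cholesterol synthesis (13), metallothionein and antioxidant (15), cell cycle (35) and ribosomal protein genes (14) held 0 called genes, with medians between -0.045 and 0.089. By experiment the median for cholesterol synthesis was -0.30, 0.16 and -0.03, and for the unfolded protein response 0.315, 0.10 and -0.03. With trimmed means equalised in place of quantiles, the ribosomal median was -0.20, and by experiment -0.20, -0.62 and 0.21. Of 24 tested respiratory chain genes 5 lay above 0, beside 2413 of all 5073 tested genes. The median of the list was -0.13 with 0 called, and by experiment it was -0.07, -0.24 and 0.05.

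**Figure D3:**
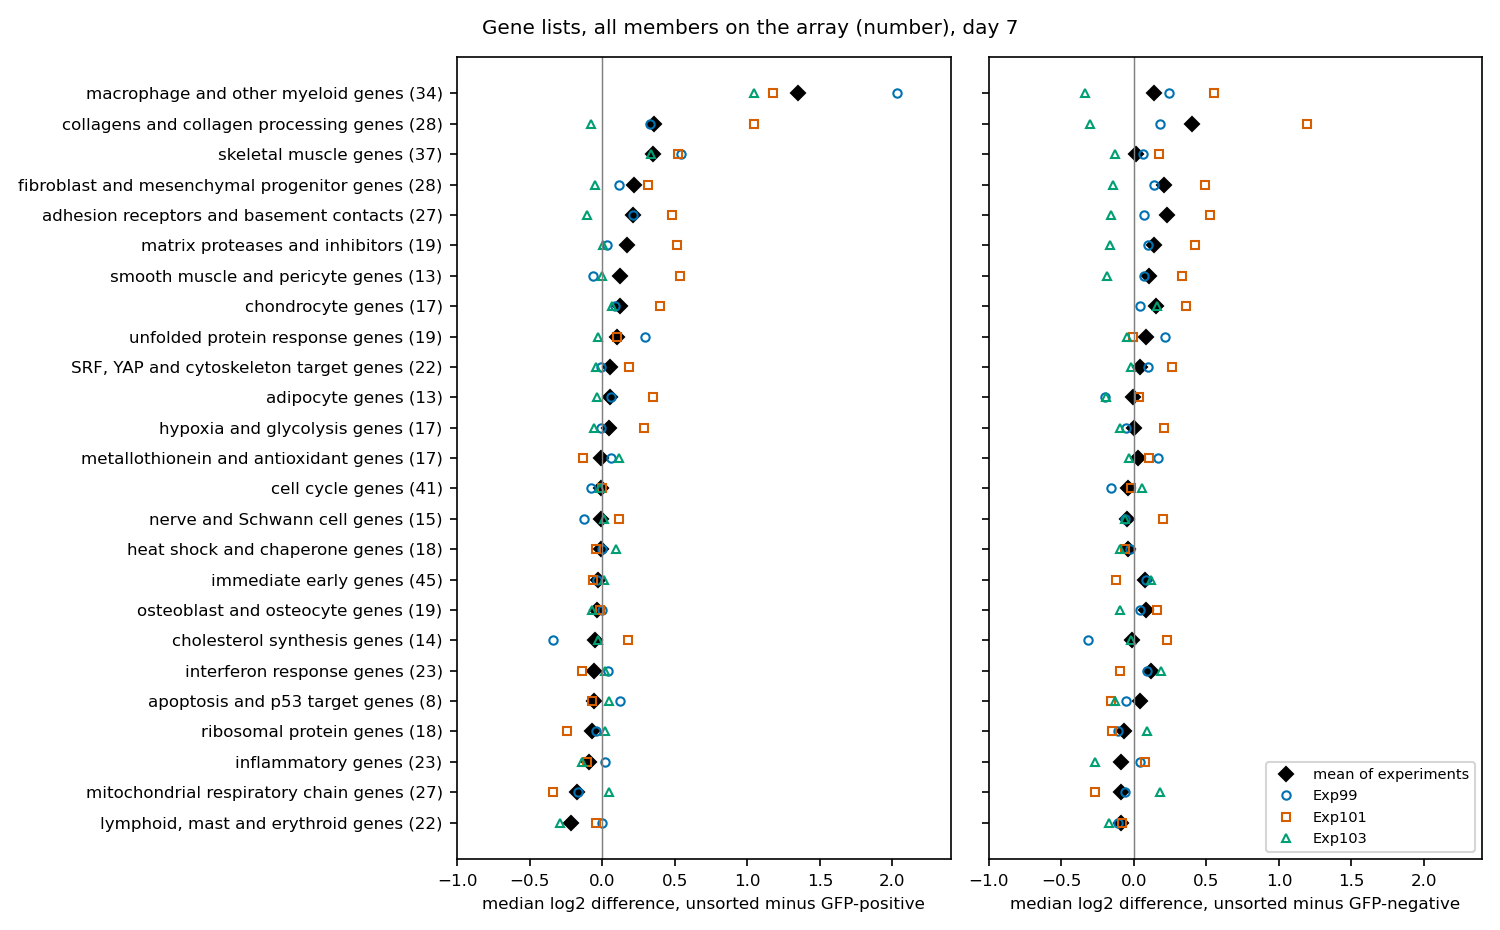
Median log2 difference of the unsorted culture from GFP-positive cells (left) and from GFP-negative cells (right) for each gene list with at least 5 tested members, over all its members on the array with no filter (their number in brackets). Black diamonds are medians over the members' means of the 3 experiments and open symbols the medians within 1 experiment; the macrophage list stands at 1.35 on the left and 0.14 on the right, and the collagen list of Exp101 lies right of its other experiments in both panels.

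Osteoblast genes were present, but did not all mark the GFP-positive fraction. Col1a1 was higher in GFP-positive than in GFP-negative cells only in Exp101, Alpl in Exp99 and Exp101 and Ibsp in every experiment. Col1a1, the main chain of type I collagen, read 111700, 120500 and 87320 unsorted, 90710, 50080 and 94980 GFP-positive and 96670, 42650 and 120500 GFP-negative. It is among the brightest probe sets, where equalised quantiles set a value by its rank on the array, so that 120500 recurs. The unsorted culture was higher than both fractions in Exp99 and Exp101 and lower than both in Exp103, and the difference from their mean was 0.45 ± 0.25. Alpl, the alkaline phosphatase of osteoblasts, read 310, 748 and 663 unsorted, 342, 545 and 601 GFP-positive and 291, 397 and 614 GFP-negative (0.25 ± 0.22). Ibsp, bone sialoprotein, read 124, 502 and 957 unsorted, 114, 835 and 1903 GFP-positive and 36.8, 475 and 483 GFP-negative, and differed more between experiments than between the unsorted culture and its fractions (0.11 ± 0.30). Of 13 tested osteoblast and osteocyte genes 0 were called and the median was 0.07. Endothelial genes had 2 tested members of 13 and osteoclast genes 4 of 9, with Pecam1, the endothelial adhesion receptor, too low to be tested.

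The difference in matrix genes changed sign between experiments. Of 24 tested collagens and collagen processing genes 23 had a difference above 0 from the mean of the fractions, beside 2413 of all 5073 tested genes. The median of the list was 0.36 and 0 were called. By experiment that median was 0.23 in Exp99, 1.16 in Exp101 and -0.22 in Exp103, and the summed intensity of the list was 491600, 530700 and 391000 unsorted, 407400, 256500 and 417500 GFP-positive and 427100, 214400 and 506100 GFP-negative. The low values were those of the 2 Exp101 fractions. On the deposited scale the medians were 0.28, 1.31 and -0.26. Adhesion genes (19 tested) had medians of 0.25, 0.51 and -0.14, and fibroblast genes (25 tested) 0.11, 0.54 and -0.13, in the same order of experiments.

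The 8 genes farthest above both fractions in Exp101, picked after the values were seen and given as a description, were Hspg2, Wfs1, Mnt, Rag1, Nid2, Plec, Adam8 and Col4a1. Hspg2 (perlecan), Nid2 and Col4a1 encode basement membrane proteins and Plec the linker protein plectin. Hspg2 read 4371, 4126 and 2348 unsorted, 2296, 490 and 2660 GFP-positive and 2856, 374 and 4301 GFP-negative. Col4a1 read 6602, 9780 and 5418 unsorted, 4624, 2112 and 5983 GFP-positive and 4147, 1747 and 6721 GFP-negative. The fractions of Exp101 lay below all the other sorted samples in both genes, while its unsorted sample lay within the range of the other unsorted samples for Hspg2 and above it for Col4a1. The median of the 206 probe sets was 0.38 log2 units above the other unsorted samples in the Exp101 unsorted sample and -1.02 from the other fractions in the Exp101 fractions. The cause was not tested.

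**Figure D4:**
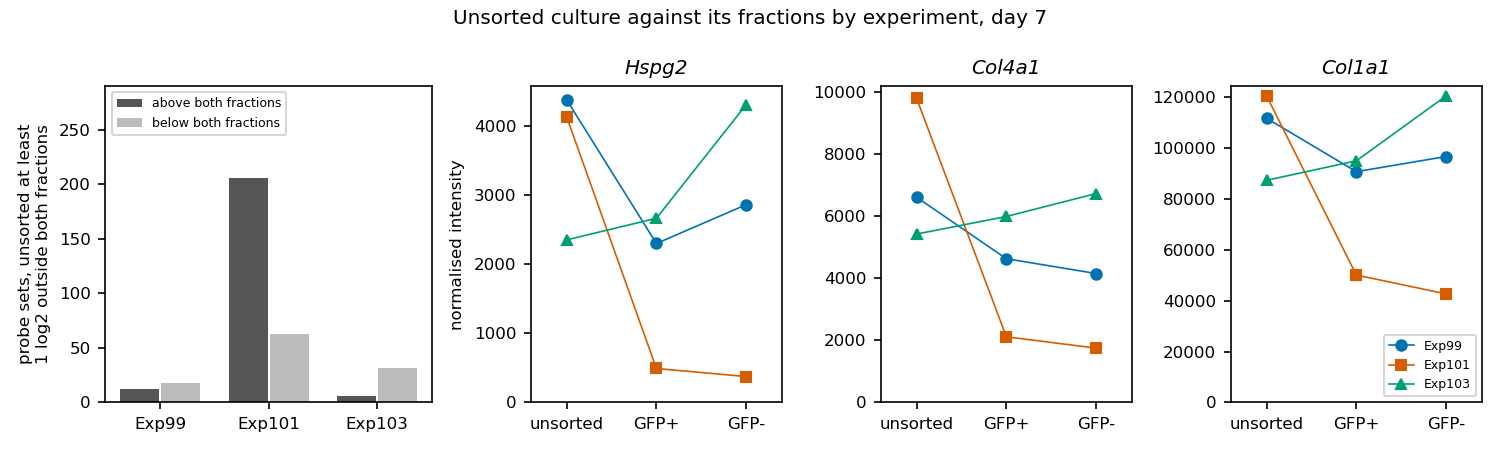
Left, number of tested probe sets in which the unsorted sample lay at least 1 log2 unit above (dark) or below (light) both of its fractions, by experiment: 206 and 63 in Exp101 against 12 and 18 in Exp99 and 6 and 32 in Exp103. Right, normalised intensity (linear axis) of Hspg2, Col4a1 and Col1a1 in the unsorted culture, GFP-positive (GFP+) and GFP-negative (GFP-) cells, with 1 point per sample; the 2 sorted samples of Exp101 are the lowest in each panel.

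The same unsorted comparison exists at day 17, in Exp100, Exp105 and Exp106, where cultures carried another transgene, pOBCol2.3GFP, and received additions to the medium, so that day, transgene and additions cannot be told apart. In a fit of all 18 samples, the difference of the unsorted culture from the mean of its fractions differed between days in 8 of 7455 probe sets (0.107%), all lower at day 7 (limma adjusted p under 0.05). They were Rhoj, Irf5, Prss23, Meg3, Lsp1, Igf2, Cyba and a probe set shared by H19 and Mir675. Igf2, an imprinted gene for a fetal growth factor, read 54950, 68210 and 59360 unsorted at day 7, 53810, 47720 and 55510 GFP-positive and 56240, 46810 and 60540 GFP-negative. All 3 groups overlapped at day 7, with a difference of 0.19 ± 0.12 from the mean. At day 17 Igf2 read 53810, 48170 and 80200 unsorted, 9008, 8049 and 15020 GFP-positive and 52210, 41850 and 56240 GFP-negative, and the difference between days was -1.20 ± 0.17 (limma adjusted p = 0.013). Meg3, an imprinted noncoding RNA, read 5327, 5194 and 5549 unsorted at day 7, 5527, 4913 and 6014 GFP-positive and 5791, 5747 and 6405 GFP-negative, and differed between days by -1.31 ± 0.17 (limma adjusted p = 0.012). At day 17 it read 6537, 4750 and 2557 unsorted, 824, 617 and 295 GFP-positive and 9052, 5620 and 4427 GFP-negative. For both genes the unsorted culture of day 17 lay nearer to GFP-negative than to GFP-positive cells. This puts it above the mean of fractions that differ widely, whereas the fractions of day 7 overlapped. Cyba and Irf5 lay further out. At day 17 Cyba read 16410, 14690 and 16320 unsorted against 9966, 8639 and 9247 GFP-negative (0.77 ± 0.14). Irf5 read 2053, 1727 and 2274 against 1156, 884.5 and 844 (1.05 ± 0.19). Each passed against GFP-negative cells (limma adjusted p = 0.037) and exceeded both fractions in every day 17 experiment. The other called probe sets differed from GFP-negative cells by -0.50 (Meg3) to 0.25 (Igf2). Without the block 0 probe sets passed (293 at an unadjusted p under 0.05). Without Exp106 1.46% of 7033 passed, 20 probe sets of them higher at day 7, and without the GFP-positive sample of Exp106 alone 147 passed. Calls fell to 0 without the unsorted sample of Exp99, Exp100 or Exp105 or the GFP-positive sample of Exp99. They fell to 2 without the unsorted sample of Exp103 or the GFP-negative sample of Exp99, and to 4 or 5 without the unsorted sample of Exp106 or a sorted sample of Exp101 or Exp103. Without the unsorted sample of Exp101 10 passed, 6 of them shared with the 8, and without the whole of Exp101 5 passed, 3 of them shared.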

How the data were processed

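The 9 day 7 arrays of type A were used, with groups and experiments taken from the sample titles. The values are whole-number intensities as deposited by the authors, 1 per probe set, with a lowest value of 10; their summarisation and scaling are not given in the sources used here. Gene names came from GEO's platform annotation, in which 10833 of 12422 probe sets name 1 gene, 396 several and 1193 none. For log2 of the intensity plus 32, quantiles were equalised over all 18 arrays of type A. A probe set was tested if above its array's median on 3 or more arrays of the fit. limma 3.58.1 (R 4.3.3; lmFit, eBayes with a variance trend) fitted group means with experiment as a block, which leaves 4 residual degrees of freedom, and Benjamini-Hochberg adjusted p-values were called under 0.05. A fold change is on this log scale and understates that of dim probe sets.

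The titles pair the samples. As a check, deviations from the group means correlated within an experiment by 0.43 and 0.43 (unsorted with GFP-positive and GFP-negative) in Exp99, -0.03 and -0.16 in Exp101 and -0.12 and -0.32 in Exp103. Between the fractions they correlated by 0.36, 0.56 and 0.47. The Exp101 unsorted sample correlated with the Exp103 fractions by 0.26 and 0.31, and the Exp103 unsorted sample with the Exp101 fractions by 0.33 and 0.49. The comparisons and 28 gene lists were chosen with earlier results of these data known. For named genes 1 probe set, the brightest that names the gene alone, stands for each gene. Genes were picked by a rule, and the text names only some of them. For each comparison it took up to 8 largest passing changes each way, filled with the smallest p-values. From each list it took the 2 largest changes and any called member. It also took the 8 farthest outside both fractions each way and a fixed set of marker and immediate early genes. Picked but not shown were, among others, Klf4 (0.36 ± 0.15 from the mean of the fractions), Bag3 (0.49 ± 0.33) and Idi1 (-0.59 ± 0.33). Called probe sets that do not represent their gene, Txnip, H2-D1, Clu, the genes of the day comparison and those of single experiments were named after their values were seen. The analysis was tested on simulated data. With 3 arrays a group, their number limits the precision.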

Additional observations from a re-analysis of the deposited data

Results flagged for a closer look

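The difference of the unsorted culture from the mean of its fractions differed between day 7 and day 17 in 8 probe sets (limma interaction over 18 samples, adjusted p under 0.05), each lower at day 7. The difference between days was -1.76 ± 0.22 for Rhoj, -1.44 ± 0.23 for Irf5, an interferon regulatory factor, and -1.43 ± 0.24 for Prss23, a secreted serine protease. It was -1.31 ± 0.18 for Lsp1, a leukocyte actin-binding protein, -1.31 ± 0.17 for Meg3, -1.20 ± 0.17 for Igf2, -1.06 ± 0.16 for the probe set of H19 and Mir675 and -1.05 ± 0.17 for Cyba, a subunit of the phagocyte oxidase. At day 7 the difference from the mean of the fractions lay between -0.19 (Rhoj) and 0.19 (Igf2), and at day 17 between 1.09 (H19 and Mir675) and 1.57 (Rhoj). Groups of 3 samples were too small for the test of single outlying samples.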

How the results depend on the processing

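No gene called against GFP-positive cells changed direction under any alternative in which it was tested. For the genes of the day comparison the direction was not followed over the alternatives. The direction of the calls against GFP-positive cells was higher in all but 1 probe set of the analyses without a filter or without the Exp103 unsorted sample. Against the 16 called there, 6 passed with no replicate block, 3 with all 18 samples and no replicate block, 29 in 15 samples without Exp106, 7 with a filter at the 75th percentile and 0 without the unsorted samples of Exp101 and Exp103, a choice made after seeing the data. Leaving out samples or experiments gave 0 to 19. Against the mean of the fractions 1 passed without a filter and 1 without a variance trend, and 0 to 3 with samples left out. Against GFP-negative cells each alternative gave 0.

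For the difference between days 0 passed with no replicate block, 5 as deposited, 3 with trimmed means equalised, 5 without a filter, 4 without a variance trend and 0 to 147 with samples left out. Probe sets above and below both fractions (7 and 12) numbered 17 and 1 as deposited, 60 and 76 without a filter, 3 and 1 with the stricter filter, 154 and 209 at a distance of 0 and 0 and 0 at 0.5. Trimmed means left 7 below. With samples left out they were 11 to 391 above and 14 to 350 below, where fewer conditions have to be met. Without regard to experiments, chosen after seeing the data, there were 0 above and 4 below. On the scale as deposited the median difference from GFP-positive cells over all tested probe sets was 0.21, against -0.02 with quantiles equalised. Intensities carry no detection call, so levels near 10 give no fold. The causes were not tested.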
